A study of Arabidopsis thaliana with 36 samples.

Results

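The 7 genes described here are transcripts that plant laboratories read as markers of sulfur limitation: SDI1, SDI2, LSU1, LSU2, GGCT2;1, BGLU28 and SHM7. They were chosen by locus code from a table of read counts with 28775 genes, and all 7 were in it and passed the filter on low counts. The plants were Arabidopsis thaliana, either the wild type (Col-0) or opt3-2, a mutant of OPT3, which encodes a transporter that loads iron into the phloem. Leaf tissue, labelled shoot, and root tissue were sequenced separately, which gave 4 groups of genotype and tissue with 3 biological replicates each. Plants of all 4 groups were 11 d old when moved from plates to a hydroponic culture, stayed there for 22 d, and were exposed to 20 µM CdCl2 for 72 h. No group without cadmium was analysed here, so each value compares genotypes or tissues that were all under cadmium. The labels name 1 mutant line, and each sample held RNA of 3 to 4 plants.

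Plants take up sulfate, reduce it and join the sulfide to O-acetylserine to make cysteine, from which methionine and glutathione follow. When sulfate runs short, the transcription factor SLIM1 (EIL3) and the accumulating O-acetylserine go with induction of a small group of genes, which includes most of those described here. Their products save sulfur or release it. SDI1 and SDI2 restrain glucosinolate synthesis, BGLU28 is a beta-glucosidase that opens stored glucosinolates, and GGCT2;1 splits glutathione. LSU1 and LSU2 are small coiled-coil proteins of stress responses. SHM7, also called MSA1, is a relative of serine hydroxymethyltransferases needed for S-adenosylmethionine supply. Cadmium binds thiols, and plants under cadmium turn glutathione into phytochelatins, which makes sulfur status a concern in such an experiment.

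The stretches just upstream of the genes are shown first, as a description of the letters. In lower case below are the 250 bases before the annotated start of 4 members, read 5′ to 3′ on the gene's strand from RefSeq's TAIR10.1 assembly, with capitals where the core of the sulfur-responsive element occurs. That core is GAGAC, searched on both strands, and GTCTC is its form on the opposite strand. SDI1, GGCT2;1 and BGLU28 are shown because each held it, and LSU1 because it had the largest rise in shoots and held none.
SDI1, chr5:19807854-19808103, minus strand: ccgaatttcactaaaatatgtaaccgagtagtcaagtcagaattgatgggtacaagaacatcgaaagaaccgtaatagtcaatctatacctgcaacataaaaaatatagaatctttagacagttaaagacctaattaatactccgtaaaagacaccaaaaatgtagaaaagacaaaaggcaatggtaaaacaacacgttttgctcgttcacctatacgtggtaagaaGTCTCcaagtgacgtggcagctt
GGCT2;1, chr5:9164885-9165134, minus strand: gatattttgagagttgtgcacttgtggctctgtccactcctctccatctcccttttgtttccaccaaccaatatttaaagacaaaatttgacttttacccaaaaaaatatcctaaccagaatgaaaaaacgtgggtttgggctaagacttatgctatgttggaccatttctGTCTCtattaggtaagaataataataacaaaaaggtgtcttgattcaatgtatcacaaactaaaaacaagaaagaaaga
BGLU28, chr2:18346056-18346305, plus strand: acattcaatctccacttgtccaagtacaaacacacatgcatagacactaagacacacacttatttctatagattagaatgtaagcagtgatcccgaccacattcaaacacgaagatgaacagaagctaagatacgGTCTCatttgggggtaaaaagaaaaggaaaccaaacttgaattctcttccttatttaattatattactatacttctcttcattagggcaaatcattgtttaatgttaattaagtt
LSU1, chr3:18375941-18376190, minus strand: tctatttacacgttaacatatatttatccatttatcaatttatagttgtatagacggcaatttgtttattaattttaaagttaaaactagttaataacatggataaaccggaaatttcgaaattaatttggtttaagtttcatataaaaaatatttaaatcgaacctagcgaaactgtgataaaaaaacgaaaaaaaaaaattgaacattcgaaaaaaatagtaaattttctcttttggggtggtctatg

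The core began 23 bases before the annotated start in SDI1, 79 bases before it in GGCT2;1 and 115 bases before it in BGLU28. It was absent from these letters in SDI2, LSU1, LSU2 and SHM7. So 3 of 7 members held it, 42.9%, against 25.7% of 26709 windows of the same length before protein-coding genes of the count table. A match is a description of the letters and says nothing of a factor's binding. The share rests on 7 genes and is not read as a result of the markers. Each window was placed by the start of the annotated gene. LSU1 has 3 annotated transcripts, and GGCT2;1 and BGLU28 have 2 each, so another start would give another window.

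**Figure D1:**
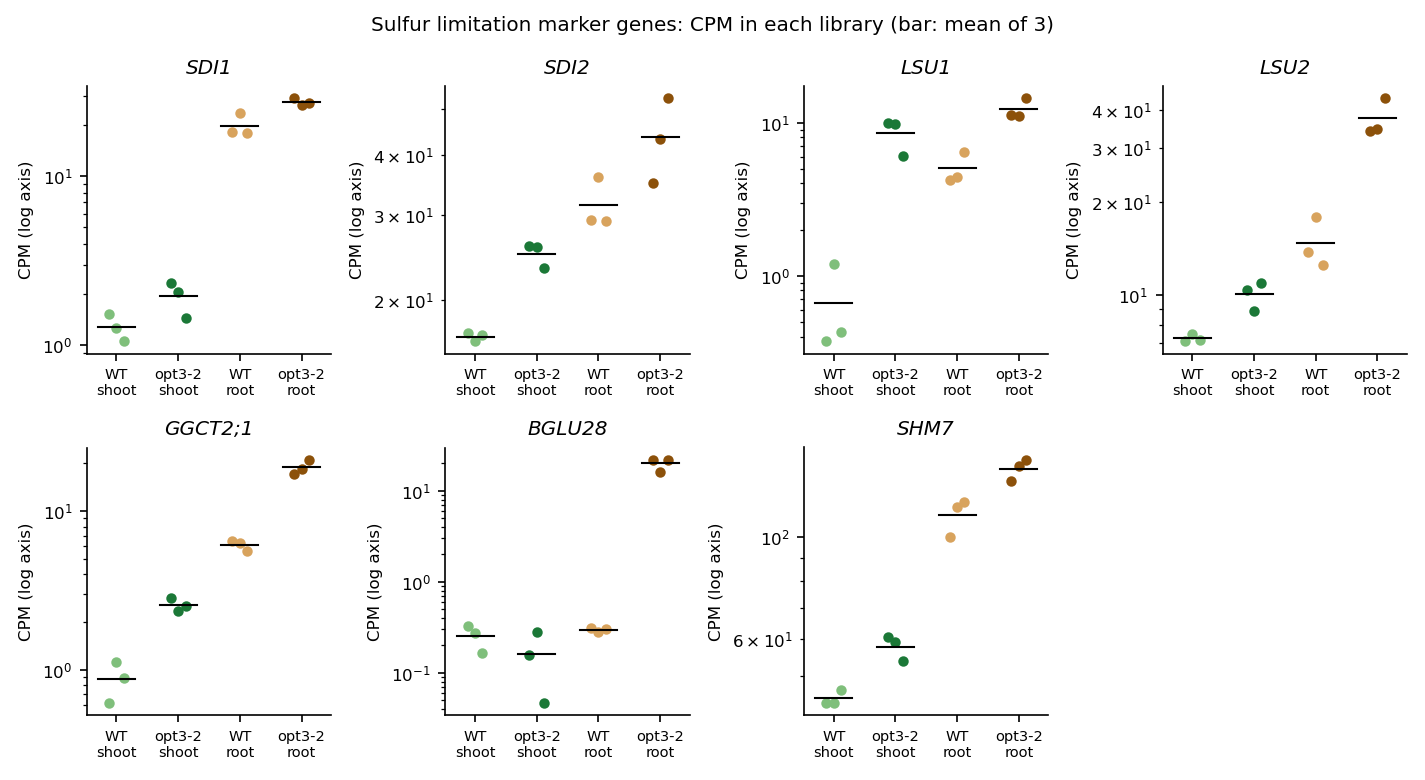
CPM (read counts scaled to library size, log axis) of the 7 marker genes in each of the 12 libraries, by genotype and tissue; each point is a library and each bar the mean of 3. Root libraries of opt3-2 held the highest mean for all 7 genes, and BGLU28 reached 16.2 to 22.0 CPM there against 0.331 CPM or less in the other groups.

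Levels are given as CPM, counts scaled to the TMM-adjusted library size. Summed over technical columns, the 12 libraries held 21262406 to 36484138 counts. The leaf markers RBCS1A, RBCS3B, CAB3, LHCA1, FD2, PSBO1 and CA1 summed to 19355 to 27281 CPM in shoots and 84.8 to 129 CPM in roots. The root markers PYK10, CASP1, CASP2, CASP5, ESB1, EXPA7, COBL9 and LRX1 summed to 2169 to 3431 CPM in roots and 58.6 to 86.4 CPM in shoots. ESB1 was not higher in roots in the wild type, at 0.719 ± 0.0689 CPM in shoots and 0.570 ± 0.139 CPM in roots (SD, n = 3). The mutated gene OPT3 was lower in opt3-2 in shoots, at 17.6 to 24.1 CPM against 321 to 389 CPM, and in roots, at 4.13 to 9.02 against 38.4 to 47.9 CPM. On the second principal component of log2 CPM, wild type shoot replicate 2 (-25.0) lay nearer to opt3-2 shoots than replicates 1 (-52.3) and 3 (-47.9), and opt3-2 shoot replicate 3 (28.7) lay nearer to wild type than replicates 1 (44.9) and 2 (44.4). Where leaving either out changes a result, the value without it is given.

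In shoots 6 of the 7 markers were higher in opt3-2 and BGLU28 did not pass. In roots all 7 were higher. Of all 21887 genes tested, 21.3% were called higher and 22.6% lower in shoots, and 17.5% higher and 21.5% lower in roots (edgeR's quasi-likelihood test, Benjamini-Hochberg adjusted p below 0.05 over all genes tested). The markers' median log2 fold change was 0.57 in shoots and 1.28 in roots, beside medians of -0.0002 and -0.01 over all genes tested. None of the 7 was called lower in either tissue by edgeR, and at an unadjusted p below 0.05 edgeR, DESeq2 and limma-voom also had 0 lower. DESeq2 called the same numbers higher, and limma-voom called 4 higher in shoots and 7 in roots. With library sizes alone as scaling, higher calls made up 35.4% of all called genes in shoots in place of 48.5%, and the shoot calls of SDI1 (edgeR adjusted p = 0.0654) and LSU2 (edgeR adjusted p = 0.0622) ended. The column names carry run suffixes of unstated meaning that are tied to genotype. Columns of the mutant run from 1 to 3 in each library, whereas those of Col-0 run from 2 to 4 or from 5 to 7. The genotypes share only suffixes 2 and 3, so genotype and suffix cannot be told apart over the full set of columns. Sizes differed widely between the members, from 1.26-fold for SHM7 in roots to 66.1-fold for BGLU28 in roots. The members and the lists were chosen with earlier results of these data known, so these counts are a description of the 7 genes.

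SDI1 (AT5G48850; chromosome 5, 19805437 to 19807853, minus strand, TAIR10.1, as for all positions here) encodes a protein that binds the transcription factor MYB28 and restrains aliphatic glucosinolate genes. It stood at 1.53, 1.26 and 1.06 CPM in wild type shoots and at 2.35, 2.07 and 1.45 CPM in opt3-2 shoots. The lowest opt3-2 shoot library lay below the highest wild type one, so the groups overlapped. In roots SDI1 stood at 18.2, 23.6 and 18.0 CPM in the wild type and at 29.0, 26.4 and 27.1 CPM in opt3-2, and the groups did not overlap. The log2 fold change of opt3-2 over wild type was 0.63 ± 0.22 in shoots (SE, n = 3 per group, edgeR adjusted p = 0.0335) and 0.46 ± 0.13 in roots (edgeR adjusted p = 0.0165). Both calls lay near the threshold. The shoot call ended under 11 of 25 alternatives. Among them were limma-voom (limma-voom adjusted p = 0.188), the 6 shoot libraries alone (edgeR adjusted p = 0.0722) and each technical replicate alone. It also ended with run suffixes 2 and 3 only (log2 0.48). In shoots the adjusted p was 0.0682 without wild type replicate 2, 0.126 without wild type replicate 3, 0.168 without opt3-2 replicate 1 and 0.0837 without opt3-2 replicate 2. In roots it was 0.0543 without wild type replicate 1, 0.0506 without wild type replicate 3 and 0.0523 without opt3-2 replicate 1.

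SDI2 (AT1G04770; chromosome 1, 1336274 to 1337849, minus strand) is the close relative of SDI1, with a coding sequence 63.9% identical to it and at most 17 identical bases in a row between the transcripts. Its level was 17.02, 16.4 and 16.9 CPM in wild type shoots and 25.8, 25.7 and 23.3 CPM in opt3-2 shoots, with no overlap. Wild type roots held 29.3, 36.1 and 29.2 CPM and opt3-2 roots 35.01, 43.3 and 52.6 CPM, and here the lowest opt3-2 library lay just under the highest wild type one. SDI2 was higher in opt3-2 by a log2 of 0.57 ± 0.13 in shoots (edgeR adjusted p = 0.00440) and of 0.47 ± 0.13 in roots (edgeR adjusted p = 0.0122). The root call ended without opt3-2 root replicate 3 (edgeR adjusted p = 0.0533) and with the 6 root libraries alone (0.0548). VAMP726, named here because it overlaps, lies on the opposite strand and shares 431 bases with SDI2, and whether the counting used strand is not given in the sources used here. VAMP726 itself had 0.566 to 2.83 CPM as group means and did not pass between genotypes in either tissue (edgeR adjusted p = 0.211 in shoots and 0.595 in roots).

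LSU1 (AT3G49580; chromosome 3, 18374908 to 18375940, minus strand) showed the largest rise of the 7 in shoots. Wild type shoots held 0.372, 1.19 and 0.429 CPM, from 9, 35 and 13 counts, and opt3-2 shoots held 9.99, 9.77 and 6.03 CPM. The lowest opt3-2 library was well above the highest wild type library. In roots the wild type held 4.22, 4.44 and 6.38 CPM and opt3-2 11.2, 11.0 and 14.4 CPM, again with no overlap. LSU1 was 12.6-fold higher in opt3-2 shoots (log2 3.66 ± 0.37, edgeR adjusted p = 2.27e-05) and 2.43-fold higher in opt3-2 roots (log2 1.28 ± 0.27, edgeR adjusted p = 0.00363). Wild type shoot replicate 2 carried the highest LSU1 of its group, and without it the log2 fold change in shoots was 4.40. The root call ended with run suffixes 2 and 3 only (log2 0.89, edgeR adjusted p = 0.0821).

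LSU2 (AT5G24660; chromosome 5, 8443279 to 8444101, minus strand) showed the opposite order of the tissues. It stood at 7.07, 7.47 and 7.16 CPM in wild type shoots and 10.4, 8.88 and 10.9 CPM in opt3-2 shoots. It stood at 13.7, 17.9 and 12.5 CPM in wild type roots and 34.1, 34.6 and 43.5 CPM in opt3-2 roots. The groups did not overlap in either tissue. The rise was 1.39-fold in shoots (log2 0.48 ± 0.15, edgeR adjusted p = 0.0213) and 2.54-fold in roots (log2 1.35 ± 0.13, edgeR adjusted p = 1.92e-05). The shoot call ended without wild type replicate 1 or 3 (edgeR adjusted p = 0.0621 each), without opt3-2 replicate 1 (0.0625) and without opt3-2 replicate 3 (0.0700). In all it ended under 8 of 25 alternatives, among them limma-voom (limma-voom adjusted p = 0.0791).

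The remaining LSU genes sit beside these as tandem copies: LSU3 lies 1760 bases from LSU1 on chromosome 3, and LSU4 lies 1914 bases from LSU2 on chromosome 5, each on the same strand as its neighbour. The coding sequences are 80.7% identical between LSU1 and LSU3 and 87.0% identical between LSU2 and LSU4. The longest run of identical bases between transcripts was 23 for the first pair and 30 for the second. How reads that map to several places were treated is not given, so counts of the 4 LSU genes are uncertain where they share sequence. LSU3 rose in shoots, from 1.34 ± 0.223 to 3.72 ± 0.145 CPM (SD, n = 3, log2 1.48 ± 0.24, edgeR adjusted p = 4.93e-04), and in roots, from 5.22 ± 1.59 to 15.9 ± 1.85 CPM (log2 1.60 ± 0.19, edgeR adjusted p = 5.91e-05). LSU4 did not pass in shoots (1.96 ± 0.456 and 2.51 ± 0.522 CPM, edgeR adjusted p = 0.281) and rose in roots, from 2.28 ± 0.730 to 4.97 ± 0.258 CPM (log2 1.12 ± 0.22, edgeR adjusted p = 0.00219).

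**Figure D2:**
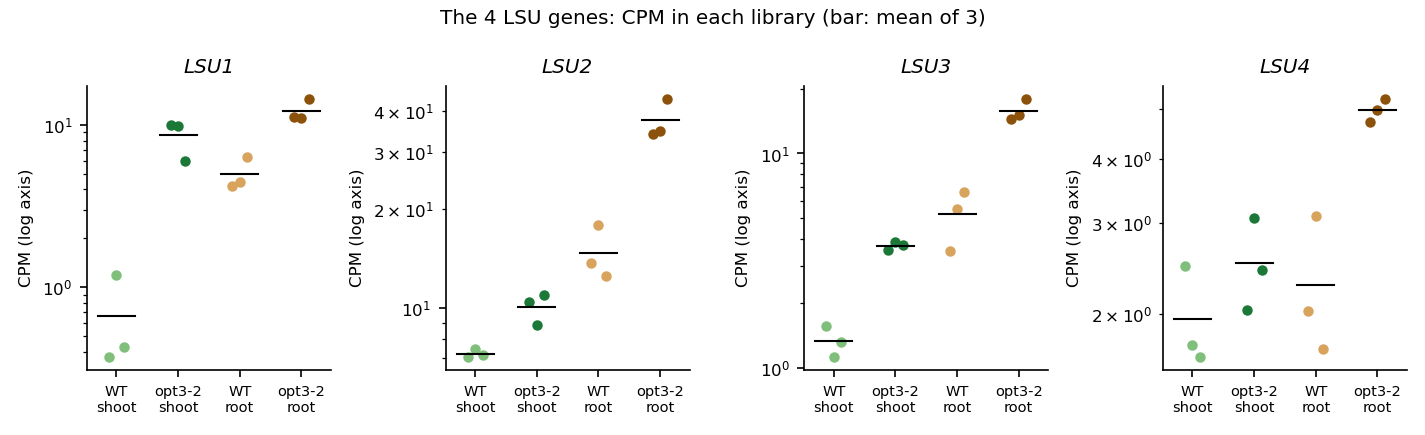
CPM (log axis) of LSU1, LSU2, LSU3 and LSU4 in each of the 12 libraries; points are libraries and bars the means of 3. In shoots LSU1 moved from 0.665 to 8.60 CPM on average between wild type and opt3-2, whereas LSU4 moved from 1.96 to 2.51 CPM.

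GGCT2;1 (AT5G26220; chromosome 5, 9162969 to 9164884, minus strand) encodes a gamma-glutamyl cyclotransferase that breaks down glutathione in the cytosol. Wild type shoots held 0.620, 1.13 and 0.891 CPM and opt3-2 shoots 2.82, 2.34 and 2.52 CPM. Wild type roots held 6.44, 6.32 and 5.58 CPM and opt3-2 roots 17.05, 18.5 and 21.1 CPM. The groups were well apart in each tissue. GGCT2;1 was higher in opt3-2 by 2.89-fold in shoots (log2 1.53 ± 0.19, edgeR adjusted p = 7.97e-05) and 3.09-fold in roots (log2 1.63 ± 0.13, edgeR adjusted p = 4.05e-06).

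BGLU28 (AT2G44460; chromosome 2, 18346306 to 18350026, plus strand) was near the detection limit in 3 of the 4 groups. It had 8, 8 and 5 counts in wild type shoots (0.331, 0.273 and 0.165 CPM) and 4, 5 and 1 in opt3-2 shoots (0.157, 0.279 and 0.0467 CPM). Wild type roots had 13, 12 and 12 counts (0.314, 0.282 and 0.301 CPM). Roots of opt3-2 had 557, 470 and 619 counts, or 22.0, 16.2 and 21.8 CPM, far above every other library. The rise in roots was 66.1-fold (log2 6.05 ± 0.23, edgeR adjusted p = 1.98e-08), and by p it ranked 9 among all genes tested there. In shoots the log2 fold change was -0.69 ± 0.51 with a 95% interval from -1.85 to 0.48 (edgeR adjusted p = 0.302), so a difference was not detectable at this depth. Technical replicate 3 alone gave an adjusted p of 0.0441 in shoots with log2 -2.65, and technical replicate 1 alone gave the other sign.

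SHM7 (AT1G36370; chromosome 1, 13696042 to 13698739, minus strand) had the smallest change of the members that passed, in both tissues. Wild type shoots held 43.7, 43.7 and 46.6 CPM and opt3-2 shoots 60.6, 59.0 and 53.7 CPM. Wild type roots held 99.7, 116 and 119 CPM and opt3-2 roots 132, 142 and 147 CPM. The groups did not overlap in either tissue. The log2 fold change was 0.37 ± 0.08 in shoots (edgeR adjusted p = 0.00204) and 0.33 ± 0.07 in roots (edgeR adjusted p = 0.00441). The root call ended with run suffixes 2 and 3 only (log2 0.28, edgeR adjusted p = 0.0800).

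**Figure D3:**
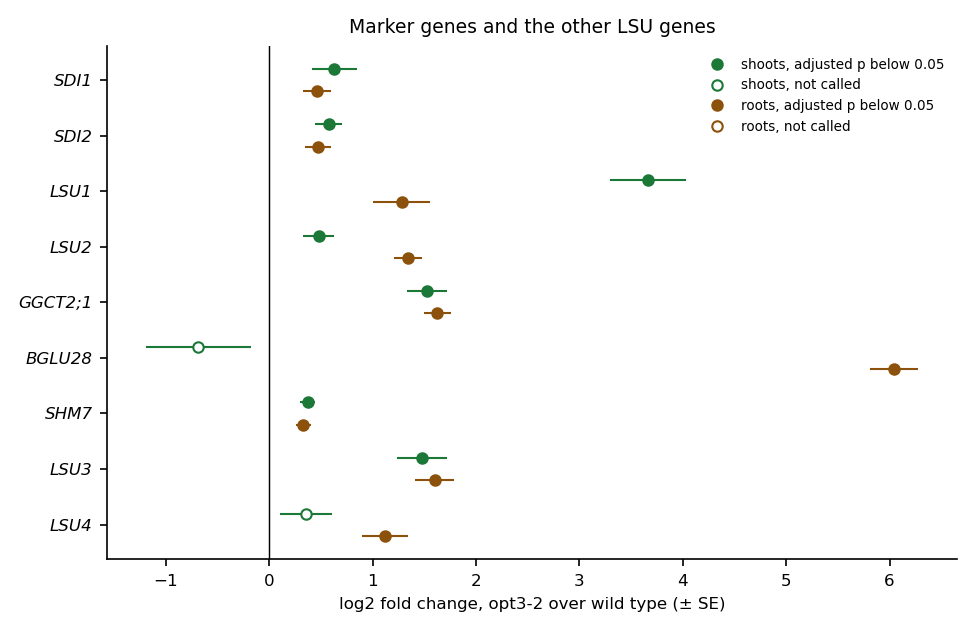
Log2 fold change of opt3-2 over wild type (± SE, n = 3 per group) in shoots and roots for the 7 markers and for LSU3 and LSU4; filled points passed an adjusted p of 0.05 in edgeR. LSU1 lies at 3.66 in shoots against 1.28 in roots, and BGLU28 at 6.05 in roots with no call in shoots.

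Whether the genotype difference itself differed between tissues was tested as the root difference minus the shoot difference. It did so for 3 of the 7 markers: 2 were called higher, where 24.2% of all genes were, and 1 lower, where 24% were. BGLU28 stood at 6.73 ± 0.59 on the log2 scale (edgeR adjusted p = 6.49e-06) and LSU2 at 0.86 ± 0.20 (edgeR adjusted p = 0.00381), both with the larger difference in roots. LSU1 stood at -2.38 ± 0.47, with the larger difference in shoots (edgeR adjusted p = 0.00151), and at -3.12 without wild type shoot replicate 2. The other 4 did not pass. Their 95% intervals ran from -0.75 to 0.42 for SDI1, from -0.53 to 0.32 for SDI2, from -0.47 to 0.66 for GGCT2;1 and from -0.29 to 0.20 for SHM7. LSU3, the tandem neighbour of LSU1, did not pass this test either (0.13 ± 0.31, edgeR adjusted p = 0.775).

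The markers were also root-biased. In the wild type 6 of 7 were higher in roots than in shoots, where 39.5% of all genes were called higher and 38.6% lower. In opt3-2 6 of 7 were higher, where 43.6% of all genes were called higher and 41% lower. SDI1 had the largest difference in the wild type, 15.6-fold (log2 3.97 ± 0.18, edgeR adjusted p = 3.95e-10), and LSU1 (7.37-fold) and GGCT2;1 (6.84-fold) followed. SHM7 (2.50-fold), LSU2 (2.04-fold) and SDI2 (1.88-fold) differed less. BGLU28 did not pass in the wild type (log2 0.25, 95% interval from -0.64 to 1.13, edgeR adjusted p = 0.565). In opt3-2 it was 126-fold higher in roots, over shoot libraries with only 4, 5 and 1 counts. LSU1 did the reverse: in opt3-2 its tissue difference was 0.50 ± 0.27 (95% interval from -0.13 to 1.14, edgeR adjusted p = 0.106), although without wild type shoot replicate 2 it passed at 0.0418, and it also passed with limma-voom (0.0403) and with library sizes alone (0.00658). With library sizes alone as scaling, the share of higher calls among all called genes in the wild type was 67.6% in place of 50.6%, and in opt3-2 66.8% in place of 51.5%. That scaling moved the median of all genes by 0.35 and 0.43. The 6 wild type calls held under it.

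The order of the 4 groups was the same for 5 of the markers (SDI1, SDI2, LSU2, GGCT2;1 and SHM7): wild type shoots lowest, then opt3-2 shoots, wild type roots and opt3-2 roots. Neighbouring groups in this order overlapped only between the shoot groups for SDI1 and between the root groups for SDI2. How many of all genes share this order, or separate in this way, was not counted. The order is therefore a description of these 5 genes and follows from the tissue and genotype differences above. For LSU1 wild type roots came below opt3-2 shoots, and these neighbours overlapped. For BGLU28 the 3 lower groups overlapped with their neighbours. From the lowest to the highest group the mean CPM differed 125-fold for BGLU28, 21.5-fold for GGCT2;1, 21.4-fold for SDI1, 18.4-fold for LSU1, 5.17-fold for LSU2, 3.14-fold for SHM7 and 2.60-fold for SDI2. The ratio for BGLU28 rests on 4, 5 and 1 counts in opt3-2 shoots, near the detection limit.

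Levels of different genes were compared only per kilobase of annotated exon. On that scale SHM7 was highest in every group, from 20.7 ± 0.771 CPM per kb in wild type shoots to 65.0 ± 3.48 CPM per kb in opt3-2 roots (SD, n = 3). SDI2 and LSU2 held the next places in all 4 groups. In opt3-2 roots LSU2 (45.5 ± 6.46 CPM per kb) and SDI2 (34.0 ± 6.86 CPM per kb) came before SDI1 (22.6 ± 1.12 CPM per kb), GGCT2;1 (15.5 ± 1.68 CPM per kb) and LSU1 (13.8 ± 2.19 CPM per kb). BGLU28 was lowest in every group and reached 9.16 ± 1.51 CPM per kb in opt3-2 roots.

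Within a group the markers did not always vary alike. In opt3-2 roots replicate 3 held the highest value for 5 of the 7, and in opt3-2 shoots replicate 1 held the highest and replicate 3 the lowest for 5 of the 7. In the wild type no replicate was highest for more than 3. The coefficient of variation over 3 libraries had a median of 18.5% in wild type shoots, 10.6% in opt3-2 shoots, 12.5% in wild type roots and 14.2% in opt3-2 roots. Its highest values were 69.0% for LSU1 in wild type shoots and 72.3% for BGLU28 in opt3-2 shoots, both at low counts.

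The genes whose pattern was most like each marker were found by the distance between the 4 group means of log2 CPM, each gene centred on its own mean. Among the markers themselves the closest pairs were SDI2 and SHM7 (distance 0.48) and LSU2 and SHM7 (0.74), and BGLU28 was at 3.35 or more from each of the other members. DREB2B, a transcription factor of dehydration and heat responses, was the nearest gene to GGCT2;1 (0.24). It stood at 0.864, 1.99, 5.77 and 16.6 CPM on average in wild type shoots, opt3-2 shoots, wild type roots and opt3-2 roots, beside 0.878, 2.56, 6.11 and 18.9 CPM for GGCT2;1. The 3 nearest genes to BGLU28 were AT1G71000, which RefSeq annotates as a chaperone with a DnaJ domain (0.77), AT5G09570, a Cox19-like protein (0.94), and AT1G07400, an HSP20-like chaperone (0.95). AT1G71000 went from 0.226 to 10.5 CPM between wild type and opt3-2 roots and AT1G07400 from 1.63 to 41.8 CPM. The nearest genes to SDI2, LSU2 and SHM7 lay at 0.11, 0.20 and 0.11. SDI1 lay nearest to AT2G29620 (0.05) and MYB9 (0.11). LSU1 lay at 0.96 from its nearest gene, AT1G26410, of the berberine bridge enzyme family. These distances used a prior count of 2 in the log2 CPM. With a prior count of 0.5, only 1 of the 3 nearest genes was shared for each of LSU1, BGLU28 and SHM7, the nearest gene to LSU1 was MRD1 (0.78) and the nearest to BGLU28 was AT1G07400 (1.01), so the neighbours of these members depend on that choice.

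The other genes of sulfate uptake and assimilation did not move as one block. Of 27 genes, 13 were called higher and 4 lower in opt3-2 shoots, with a median log2 fold change of 0.23. In roots 10 were higher and 7 lower, with a median of 0.08. Over all genes tested, 21.3% were called higher and 22.6% lower in shoots, and 17.5% higher and 21.5% lower in roots. The counts called lower lay near those shares or below them, and they are not read as a result of the list. With run suffixes 2 and 3 only, where wild type roots were 1 library, 4 were higher and 2 lower in roots. APR1, an adenosine phosphosulfate reductase, rose in shoots (log2 1.16 ± 0.12) and in roots (0.95 ± 0.11). APR3, of the same family, was lower in shoots (48.0 ± 8.80 to 36.6 ± 0.771 CPM, SD, n = 3, log2 -0.39 ± 0.12) and higher in roots (145 ± 13.7 to 237 ± 18.4 CPM; 0.71 ± 0.12), and this difference between tissues passed (edgeR adjusted p = 2.55e-04). SULTR2;1, a low-affinity sulfate transporter of vascular tissue, rose more in roots (log2 2.80 ± 0.11) than in shoots (0.96 ± 0.10, edgeR adjusted p of the difference between tissues = 4.20e-06). SULTR1;3, a phloem sulfate transporter, went from 0.177 ± 0.0350 to 3.13 ± 0.130 CPM in roots, 17.3-fold higher, and from 2 counts to 25 counts over the shoot libraries.

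The high-affinity root transporters and the regulator SLIM1 were singled out after their values were seen. SULTR1;1, which sulfate-starved roots induce, stood at 422, 395 and 407 CPM in wild type roots and at 230, 291 and 227 CPM in opt3-2 roots, with no overlap (log2 -0.71 ± 0.17, edgeR adjusted p = 0.00648). SULTR1;2, the main uptake carrier, did not pass in roots (668 ± 11.1 and 532 ± 13.5 CPM, log2 -0.33 ± 0.18, edgeR adjusted p = 0.175). Its root groups still did not overlap, at 667, 679 and 657 CPM in the wild type and 524, 548 and 525 CPM in opt3-2. The fit shares 1 estimate of spread over the 4 groups, and the coefficient of variation was 37.3% in wild type shoots against 1.66% in wild type roots. So the root test does not show SULTR1;2 to be unchanged. SULTR1;2 rose in shoots from 7.01 ± 2.61 to 18.2 ± 3.68 CPM (log2 1.37 ± 0.21, edgeR adjusted p = 3.83e-04). SULTR4;2, which empties vacuolar sulfate, rose in shoots (log2 0.63 ± 0.09) and roots (0.41 ± 0.09). The regulator SLIM1 itself stood at 28.5 ± 1.80 and 33.3 ± 1.88 CPM in shoots (log2 0.23, edgeR adjusted p = 0.0232) and at 30.5 ± 1.89 and 32.2 ± 1.56 CPM in roots (log2 0.07, edgeR adjusted p = 0.432).

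**Figure D4:**
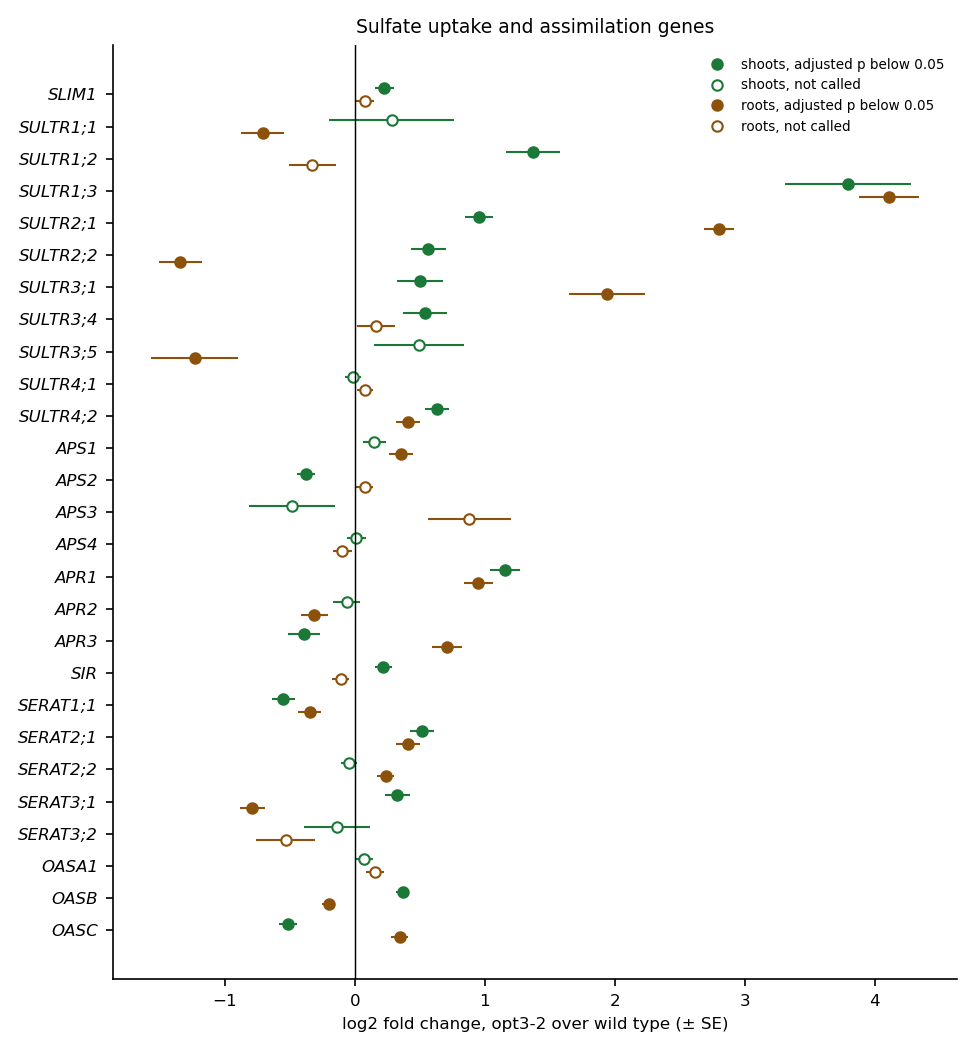
Log2 fold change of opt3-2 over wild type (± SE, n = 3 per group) in shoots and roots for 27 genes of sulfate uptake and assimilation; filled points passed an adjusted p of 0.05 in edgeR. SULTR1;3 (4.11) and SULTR2;1 (2.80) lie highest in roots, and the shoot point of SULTR1;3 rests on 2 counts in the wild type. SULTR1;1 and SULTR2;2 lie below 0 in roots, where 7 of the 27 genes were called lower.

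Genes of the markers' families did not all change in the same direction. Of 16 beta-glucosidase genes from BGLU18 to BGLU33, 14 were tested. In shoots 7 were called lower and 1 higher, where 22.6% of all genes were lower and 21.3% higher. In roots 8 were called higher and 1 lower, where 17.5% of all genes were higher and 21.5% lower. BGLU28 was thus 1 of 8 genes of its family that rose in roots. BGLU27 rose there from 3.54 ± 0.0847 to 17.03 ± 1.77 CPM and fell in shoots from 0.477 ± 0.127 to 0.0703 ± 0.0621 CPM, the latter at 18 counts or fewer per library. BGLU25 rose in roots (log2 1.18 ± 0.06) and fell in shoots (-0.70 ± 0.06). BGLU18, a leaf enzyme that frees abscisic acid from its glucose ester, fell in shoots from 1793 ± 364 to 440 ± 168 CPM. BGLU30, another glucosidase induced by sulfur limitation, named here after its values were seen, went from 130 ± 38.4 to 459 ± 29.1 CPM in roots (log2 1.82 ± 0.42, edgeR adjusted p = 0.00752) and did not pass in shoots (edgeR adjusted p = 0.394).

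**Figure D5:**
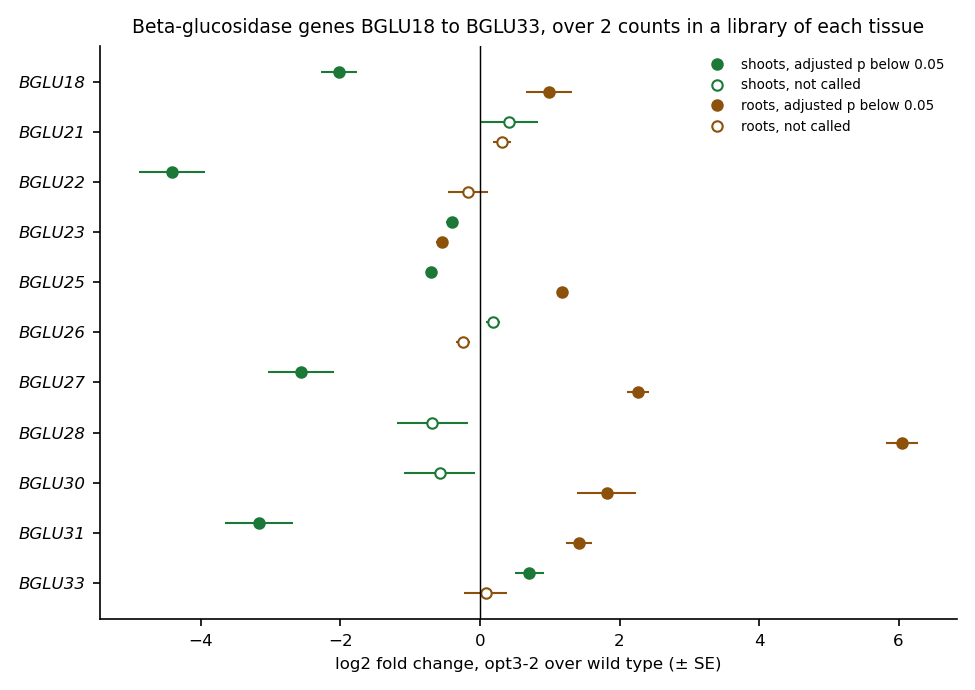
Log2 fold change of opt3-2 over wild type (± SE, n = 3 per group) in shoots and roots for beta-glucosidase genes of the family. BGLU19, BGLU20, BGLU24, BGLU29 and BGLU32, which had 0 to 2 counts per library in at least 1 tissue, are not drawn. BGLU28 lies at 6.05 in roots, beyond BGLU27 at 2.27, and BGLU18, BGLU25, BGLU27 and BGLU31 were called above 0 in roots and below 0 in shoots.

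Among the other genes of glutathione turnover, 1 of 10 rose and 3 fell in shoots, and 2 rose in roots, where edgeR called 0 lower, also at an unadjusted p below 0.05. Over all genes 22.6% were lower in shoots and 17.5% higher in roots, so these counts are not read as a result of the family, nor is the single rise in roots in the next one. GGCT2;2, the relative of GGCT2;1, rose in roots (87.0 ± 2.36 to 140.5 ± 15.9 CPM, log2 0.69 ± 0.09) and slightly in shoots (0.26 ± 0.10, edgeR adjusted p = 0.0459). GSH1, which starts glutathione synthesis, fell in shoots from 296 ± 29.8 to 218 ± 13.9 CPM and did not pass in roots (edgeR adjusted p = 0.120). In the serine hydroxymethyltransferase family without SHM7, 2 of 6 rose and 3 fell in shoots, and 1 rose in roots. SHM1, the photorespiratory enzyme of leaf mitochondria, rose in shoots from 1454 ± 116 to 2339 ± 25.0 CPM, and the cytosolic SHM4 fell in shoots (log2 -0.95 ± 0.12) and rose in roots (0.91 ± 0.12). AT3G51280, of the family of SDI1 and SDI2, fell in shoots from 3.08 ± 1.04 to 0.927 ± 0.165 CPM and rose in roots from 13.0 ± 0.501 to 21.0 ± 1.13 CPM. MYB28, the glucosinolate regulator that SDI1 binds, was higher in opt3-2 shoots (140 to 196 CPM on average, log2 0.49) and lower in opt3-2 roots (54.7 to 21.0 CPM, log2 -1.38, edgeR adjusted p = 1.84e-06).

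Of 4 genes for S-adenosylmethionine synthases, which use methionine and ATP, 3 fell in shoots and 3 rose in roots. Over all genes tested, 22.6% were called lower in shoots and 17.5% higher in roots. MAT3 fell in shoots from 308 to 163 CPM and rose in roots from 418 to 916 CPM on average, and its difference between tissues passed (log2 2.05, edgeR adjusted p = 1.79e-06).

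Some tissue markers differed between genotypes. In shoots 5 of 7 leaf markers were called higher in opt3-2, where 21.3% of all genes were. Of 8 root markers 7 were tested, without CASP5, and 2 were lower in shoots (PYK10 and ESB1), where 22.6% of all genes were. PYK10, which is BGLU23 of the glucosidase family above, made up nearly all of the summed root markers, which stood at 58.6 to 63.9 CPM in opt3-2 shoots against 76.1 to 86.4 CPM in wild type shoots. Without it the sum was 0.607 to 0.893 CPM against 1.23 to 1.65 CPM. ESB1, which was not higher in roots than in shoots in the wild type, alone held 0.357 CPM of this on average in opt3-2 shoots and 0.719 CPM in wild type shoots. In roots 0 of 7 leaf markers were called by edgeR (2 higher and 1 lower at an unadjusted p below 0.05, and 1 called higher by DESeq2 and by limma-voom), and their sums overlapped (105 to 129 CPM in opt3-2 and 84.8 to 122 CPM in the wild type). Of the 7 root markers tested there, 1 was called higher (LRX1), where 17.5% of all genes were, and 1 lower (PYK10), where 21.5% were. The counts of root markers called, in shoots and in roots, are not read as a result of that list. The summed root markers stood at 2169 to 2395 CPM in opt3-2 roots and 3073 to 3431 CPM in wild type roots. Without PYK10 they stood at 111 to 157 CPM in opt3-2 and 70.7 to 128 CPM in the wild type, and these ranges overlapped. No leaf marker was at 0 in roots, and CASP5 had 0 counts in opt3-2 shoots. Their part in the marker results was not tested. In bulk tissue, fewer cells of a type and less RNA per cell cannot be told apart. Whether the biological replicates were grown apart is not stated, so p-values measure the spread between these samples.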

How the data were processed

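The table that the authors deposited holds unnormalized counts in 36 columns. TopHat2, edgeR and the TAIR10 build are named, with no versions, per the submitters' processing notes. The counting tool, use of strand and treatment of multi-mapping reads are not stated. Counts of 3 technical columns were summed into 12 libraries, since over genes averaging 30 counts or more the columns of a library scattered at 1.02 to 1.06 of Poisson variance. edgeR 4.0.16 in R 4.3.3 tested 21887 genes kept by filterByExpr, with TMM factors and a group-means model with 8 residual degrees of freedom, by the robust quasi-likelihood F test, two-sided. Each SE was the absolute log2 fold change divided by the root of its F statistic, intervals use 8 degrees of freedom, and CPM use TMM-scaled sizes. A floor of 3 counts was 0.0705 to 0.167 CPM per library, which covers counting error only. The fit function was run on simulated counts with a common spread and few changed genes, a simpler setting than these data. That run checks the code and not the scaling or the calls here. Alternatives were RLE factors, library size alone, other filters, DESeq2 1.42.0, limma-voom (limma 3.58.1), a fit that is not robust, fewer libraries, the replicate block, single technical replicates, shared run suffixes, each library left out and, for genes of like pattern, a prior count of 0.5. The members and lists were chosen with earlier results of these data known. Genes were named by rule: all members, OPT3, up to 6 genes per list and comparison by p, and the 3 genes nearest in pattern to each member; BGLU30, SLIM1, SULTR1;1 and SULTR1;2 were chosen after their values were seen, and VAMP726 for its overlap with SDI2. Names came from RefSeq's TAIR10.1 table, which matched 28009 of 28775 codes. SDI2 and GGCT2;3 are symbols it does not list. 1 root marker is not reported here and was left out of the list and its sums.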

Additional observations from a re-analysis of the deposited data

Results flagged for a closer look

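The genotype difference differed between roots and shoots, by the test of that difference itself, for 3 of the 7 markers. Over all genes tested, 24.2% were called higher and 24% lower in that test, so the count of 3 is not read as a result of the markers. BGLU28 stood at a log2 of 6.73 ± 0.59 for roots minus shoots (edgeR adjusted p = 6.49e-06), with shoot libraries at 1 to 8 counts. LSU2 stood at 0.86 ± 0.20 (edgeR adjusted p = 0.00381). LSU1 stood at -2.38 ± 0.47 (edgeR adjusted p = 0.00151), with 9, 35 and 13 counts in wild type shoots. All 3 passed under each of 24 alternatives, where the adjusted p went up to 0.0210 for BGLU28, 0.0239 for LSU2 and 0.00642 for LSU1.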

How the results depend on the processing

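Of 867 combinations of a marker, a comparison and an alternative, 824 kept their direction and their side of the threshold, 27 lost a call, 5 gained one and 11 changed sign. The sign changes in the difference between tissues concern only SDI1, SDI2, GGCT2;1 and SHM7, which had not passed. With library sizes alone SHM7 stood at 0.038. With technical replicate 1 alone GGCT2;1 stood at -0.0034. With each library left out in turn the value ran from -0.34 to 0.011 for SDI1, from -0.26 to 0.029 for SDI2, from -0.12 to 0.27 for GGCT2;1 and from -0.12 to 0.0050 for SHM7. BGLU28 changed sign in shoots with technical replicate 1 alone (1.49) and between tissues of the wild type with technical replicate 3 alone (-0.17). Technical replicate 3 alone also gave 1 member called lower in shoots, BGLU28. With suffixes 2 and 3 only, the wild type roots were 1 library, assumed to vary like the other groups, SDI1 stood at 0.24 and SDI2 at 0.060 in the difference between tissues, and the calls over all genes were 1684 higher and 2119 lower in roots and 3409 higher and 3298 lower in the difference between tissues. LSU1 (log2 0.89 in place of 1.28) and SHM7 (0.28 in place of 0.33) then lost their calls in roots. SDI1 (log2 0.48 in place of 0.63) lost its call in shoots. Fewer samples entered this fit, and its columns were those of the shared suffixes. The cause of these lost calls, and of the others, was not tested. With a library left out, 4 to 6 members were called higher in shoots and 6 to 7 in roots. Same-numbered replicates did not deviate together (correlations of -0.31 to 0.13), so the numbers were not taken to pair samples. With the replicate block 6 members were called higher in shoots, 7 in roots, and 4420 genes higher in shoots. Depth limits BGLU28 in shoots, at 1 to 8 counts, and LSU1 in wild type shoots.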
